A study of Mus musculus with 4 samples.

Results

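A list of 35 oocyte-expressed genes, out of 54021 gene symbols counted, was followed through 4 RNA-seq libraries of reconstituted ovaries (rOvaries). The genes were taken by symbol from a written list, which was drawn up with earlier results of these data known. It holds transcription factors of the oocyte, germ cell RNA-binding proteins, the zona pellucida genes, oocyte-secreted factors, the subcortical maternal complex with related NLRP genes, and maternal effect genes. The 9 genes Nobox, Figla, Sohlh1, Sohlh2, Lhx8, Ddx4, Dazl, Kit and Uchl1 are known to be active from the germ cell or primordial follicle stage and are called early here. The other 26 accumulate in the growing oocyte and are called growing, although some of them, such as Dppa3, may also be active earlier.

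The rOvaries were aggregates of mouse primordial germ cells (PGCs) and fetal gonadal somatic cells, grown under the kidney capsule of ovariectomized G2 Terc-/- recipients, which lack the RNA template of telomerase in their second generation. Donor cells came from actin-GFP C57BL/6 mice, from female fetal gonads according to the methods. Recipients were about 10 weeks old, and grafts were collected 4 weeks (1 month in the labels) after transplantation. Both groups shared the Terc-/- host. The 2 INK128 libraries came from recipients given INK128, an inhibitor of the mTOR kinase in both of its complexes, in the drinking water at 30 μM according to the methods and at 0.75 μM per g of body weight according to the labels, while the 2 control libraries (replicates 1 and 3) came from recipients without it. Nothing in the labels ties the libraries to separate animals, so a p-value here measures only the spread between these samples, which may be technical. A comparison of 2 with 2 libraries cannot reach a two-sided exact permutation p below 0.333, and tests therefore rest on the fit across all genes.

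An oocyte grows inside a follicle from a small resting cell to a large one that stores messenger RNA for the early embryo. NOBOX, FIGLA, SOHLH1, SOHLH2 and LHX8 switch on the programme of the early oocyte, and FIGLA binds E-box sequences of the zona genes. The growing oocyte then secretes its zona pellucida coat and the growth factors GDF9 and BMP15, which act on the granulosa cells around it. In bulk tissue, fewer oocytes and less RNA per oocyte cannot be told apart.

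The sequence upstream of 4 members is shown because the first 3 are oocyte genes whose levels were far lower in 1 control library than in the other libraries, and Kit is a member whose level was not. Each run holds the 250 bases before the RefSeq gene start (GRCm38.p6), written 5′ to 3′ on the gene's strand. Capitals mark the E-box CANNTG on either strand, where N is any base.
Zp3, chr5:135979855-135980104, plus strand: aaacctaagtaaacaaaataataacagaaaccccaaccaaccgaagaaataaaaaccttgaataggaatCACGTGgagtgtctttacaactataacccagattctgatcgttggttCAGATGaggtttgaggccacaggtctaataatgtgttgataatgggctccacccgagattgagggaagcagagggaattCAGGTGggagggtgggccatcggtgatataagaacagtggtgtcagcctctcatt
Oosp1, chr19:11691052-11691301, minus strand: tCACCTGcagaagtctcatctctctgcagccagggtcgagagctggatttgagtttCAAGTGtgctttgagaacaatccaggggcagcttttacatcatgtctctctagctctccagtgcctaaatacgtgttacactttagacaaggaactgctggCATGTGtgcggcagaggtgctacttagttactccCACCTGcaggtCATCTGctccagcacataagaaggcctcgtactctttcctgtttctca
Nobox, chr6:43309555-43309804, minus strand: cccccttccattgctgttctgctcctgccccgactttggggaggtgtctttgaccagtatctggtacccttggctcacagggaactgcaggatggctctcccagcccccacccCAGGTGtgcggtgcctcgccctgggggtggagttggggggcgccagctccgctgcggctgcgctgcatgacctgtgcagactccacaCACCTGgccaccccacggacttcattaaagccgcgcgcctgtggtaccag
Kit, chr5:75574737-75574986, plus strand: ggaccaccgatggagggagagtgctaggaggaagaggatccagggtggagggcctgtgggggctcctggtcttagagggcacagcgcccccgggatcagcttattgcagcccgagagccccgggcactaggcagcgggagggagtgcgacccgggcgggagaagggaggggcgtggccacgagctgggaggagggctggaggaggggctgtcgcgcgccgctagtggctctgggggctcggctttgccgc
Oosp1 held 5 E-boxes in this window, Zp3 held 3, Nobox held 2 and Kit held 0. Lhx8, Gpr3, Nlrp2 and Uchl1 also held 0, and all of them were lowest in control replicate 3. A relation between E-boxes and that low level was not tested. RefSeq promoters were matched for 26 of the 35 members, and 21 of these (80.8%) held an E-box, against 66.0% of all 27025 promoters of the same length. The NOBOX element TAATTG, searched on both strands, was present in 2 of the 26 (7.69%, Zar1l and Ooep) and in 7.34% of all promoters, and the TATA box TATAAA, searched on the gene's strand, in 1 of 26 (3.85%, Rfpl4) and in 8.12% of all. The letters of the E-box cannot share bases with those of either other pattern. A match of letters is a description of the window and not a site of binding. No promoter was matched for Zp1, Zp2, Gdf9, Nlrp14, Dppa3, Npm2, H1foo, Mos and Bcl2l10.

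Levels are given as counts scaled to the library total (CPM), with TMM factors, in the order INK128 replicate 1, INK128 replicate 2, control replicate 1 and control replicate 3. Counts summed to between 19130209 and 23029089 per library, so that 3 counts corresponded to 0.127 to 0.161 CPM. Such limits and all intervals below cover counting error only. The INK128 libraries resembled each other, with 1.0% of the 11758 genes of mean CPM above 10 differing by more than 2-fold, against 13.8% between the controls. Each control stood apart in its own way. Sertoli cell markers (5 genes, among them Sox9 and Dmrt1) summed to 124, 122, 1109 and 63.3 CPM and Y-linked genes (4 genes) to 0.107, 0, 45.2 and 0 CPM, both highest in control replicate 1. Kidney markers (10 genes) summed to 36.5, 114, 438 and 1086 CPM, highest in control replicate 3. Tests are given below with both controls and without either.

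The oocyte programme was present in all libraries, at a far lower level in control replicate 3. The 35 members summed to 3090, 2226, 2120 and 159.6 CPM. Without Kit and Uchl1, which other cell types also express, the sums were 2813, 2039, 1809 and 82.5 CPM. Control replicate 3 held the lowest level of the 4 libraries for 32 of the 35 members, and for 27 of the 28 with a mean CPM above 10, whereas it was the lowest library for 29.2% of all 11758 genes above that limit. The exceptions were Kit, Sohlh1 and Sohlh2. All 8 oocyte markers used to check the tissue (Zp1, Zp2, Zp3, Gdf9, Bmp15, Nobox, Figla and Ooep) had counts in every library, the lowest being 1 count of Figla in control replicate 3.

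**Figure D1:**
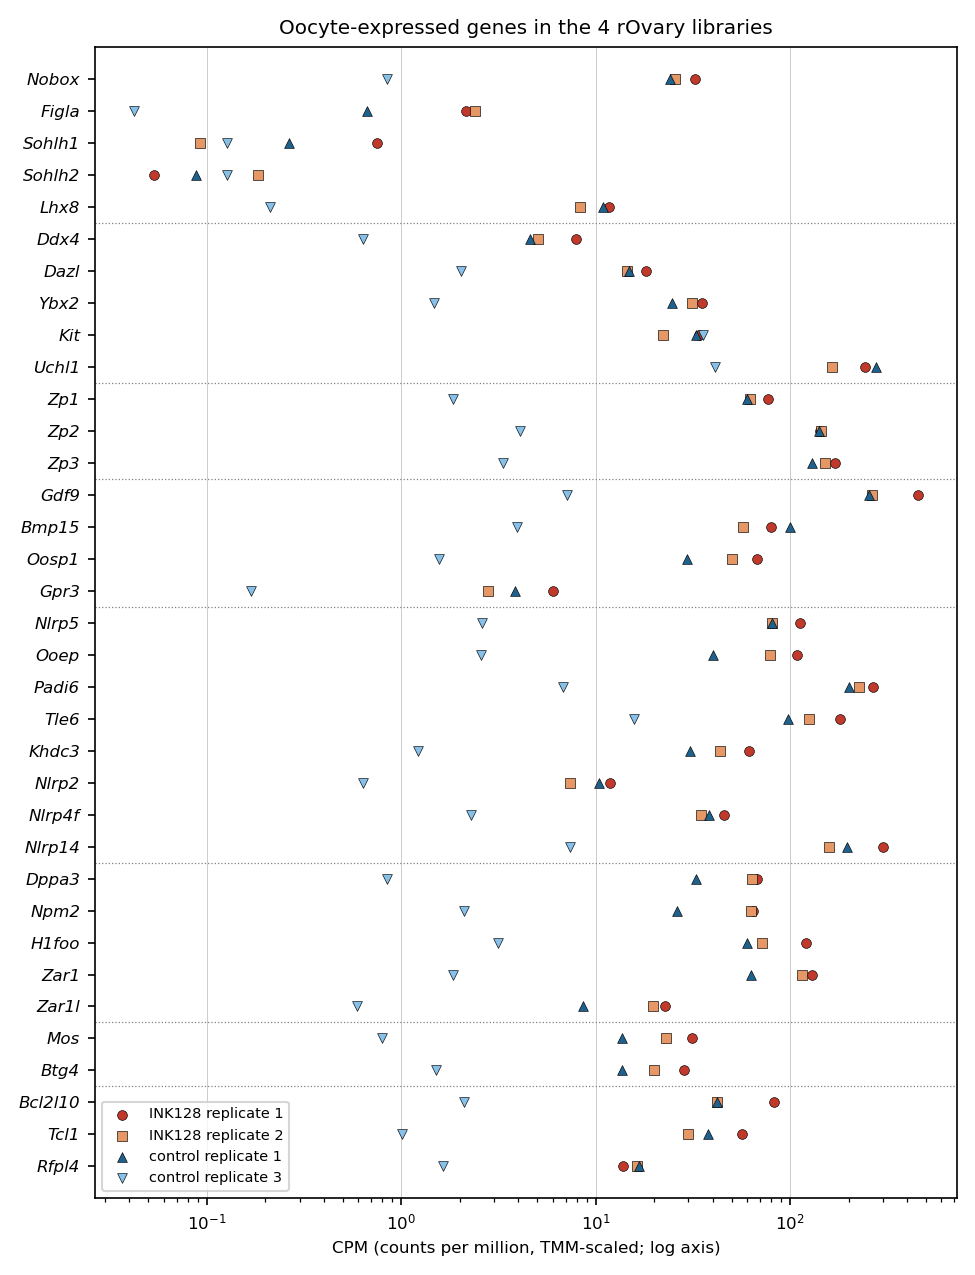
CPM of each of the 35 members (rows, grouped by role between dotted lines) on a log axis, with 1 symbol per library. Control replicate 3 (light triangles) lies far to the left of the other libraries for most genes, while Kit lies at 22.2 to 35.8 CPM in all 4.

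Per kilobase of exon, the scale on which levels of different genes can be compared, Gdf9 had the highest median over the 4 libraries, followed by Uchl1, Zp3, Padi6 and H1foo. Gdf9 ranked 1, 1, 2 and 4 among the 35 members in the libraries in the order above, and Zp3 ranked 3, 2, 3 and 7. Tle6 ranked 11 in the first 3 libraries and 2 in control replicate 3, and Kit ranked 29, 30, 29 and 3. The lowest levels per kilobase were those of Gpr3, Sohlh1 and Sohlh2, which ranked between 31 and 35 in every library. Rfpl4 ranked 26, 24, 23 and 15, so that Tle6, Kit and Rfpl4 all stood higher in the order of control replicate 3 than in that of the other libraries.

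Among the transcription factors, Nobox (chromosome 6 from 43303674 to 43309554, minus strand) measured 32.5, 25.7, 24.1 and 0.843 CPM. Lhx8 measured 11.8, 8.28, 10.9 and 0.211 CPM, and its groups overlapped. Figla had 40, 52, 15 and 1 counts, equal to 2.15, 2.39, 0.664 and 0.0422 CPM. For Nobox and Figla both INK128 libraries lay above both controls. Figla alone of these 3 had a level in control replicate 1 well under the INK128 libraries, of which replicate 1 was 3.23-fold higher. Sohlh1 with 14, 2, 6 and 3 counts and Sohlh2 with 1, 4, 2 and 3 counts were at or near the floor of 3 counts. They were not tested at a mean CPM above 10 or above 1, and only an alternative fit of genes with at least 1 count held them. Both are basic helix-loop-helix factors that act mainly before and during the formation of primordial follicles.

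The germ cell RNA-binding genes were also lowest in control replicate 3. There Ddx4 was 7.28-fold, Dazl 7.37-fold and Ybx2 16.8-fold lower than in control replicate 1. These differences were smaller than those of Nobox (28.6-fold) and Lhx8 (51.9-fold). Ddx4, which encodes the germ cell RNA helicase VASA, measured 7.94, 5.06, 4.60 and 0.633 CPM. Dazl, an RNA-binding regulator of translation, measured 18.3, 14.5, 14.9 and 2.02 CPM. Ybx2, which encodes a protein that coats stored maternal messenger RNA, measured 35.2, 31.3, 24.8 and 1.48 CPM. The INK128 libraries lay above both controls for Ddx4 and Ybx2, and the groups overlapped for Dazl. Uchl1, a deubiquitinase abundant in oocytes and neurons, measured 242, 165, 278 and 41.2 CPM and overlapped too, with its highest level in control replicate 1. Part of Uchl1 overlaps a gene on the other strand, Uchl1os, and whether strand was used in counting is not given in the sources used here.

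Kit, the receptor for the granulosa cell factor KIT ligand, did not follow the other members. It measured 34.1, 22.2, 32.6 and 35.8 CPM on chromosome 5 (75574916 to 75656722, plus strand), with its highest level in control replicate 3. Mast cells also carry KIT, and the 6 mast cell markers summed to 0.0537, 0.0920, 46.4 and 12 CPM. Kitl, its ligand, measured 332, 219, 266 and 308 CPM. The part of other KIT-bearing cells in the level of Kit was not tested.

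The zona pellucida genes were nearly level across the first 3 libraries. Zp3 (chromosome 5 from 135980099 to 135988624, plus strand) measured 171, 151, 129.9 and 3.33 CPM, Zp2 measured 143, 144, 141 and 4.09 CPM, and Zp1 measured 77.2, 62.4, 60.3 and 1.86 CPM. Both INK128 libraries lay above both controls for all 3, as for 34.5% of all tested genes, yet INK128 replicate 1 exceeded control replicate 1 by only 1.01-fold for Zp2, 1.28-fold for Zp1 and 1.31-fold for Zp3. The share of each gene in the summed zona counts was alike in the 4 libraries. Zp1 made up 19.8%, 17.4%, 18.2% and 20.0% of them, Zp2 36.6%, 40.3%, 42.6% and 44.1%, and Zp3 43.7%, 42.2%, 39.2% and 35.9%, so that the 3 coat genes were low together in control replicate 3.

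Of the secreted factors, Gdf9 (chromosome 11 from 53431023 to 53437904, plus strand) measured 454, 264, 256 and 7.13 CPM, a mean of 359 ± 134 CPM (SD, n = 2) for INK128 against 132 ± 176 CPM (SD, n = 2) for the control libraries. Bmp15, its X-linked relative, measured 79.8, 57.4, 99.7 and 3.92 CPM. Oosp1, an oocyte-secreted protein, measured 67.7, 50.3, 29.4 and 1.56 CPM. Bmp15 was thus highest in control replicate 1 and its groups overlapped, while Gdf9 and Oosp1 had both INK128 libraries above both controls. Gpr3, a receptor that helps to keep the oocyte in meiotic arrest, measured 6.01, 2.81, 3.85 and 0.169 CPM, with overlapping groups, and part of it overlaps Cd164l2 on the other strand.

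The subcortical maternal complex lies under the oocyte membrane and is needed for the first cleavages of the embryo. Its members Nlrp5, Ooep, Padi6, Tle6 and Khdc3 and the related Nlrp2, Nlrp4f and Nlrp14 summed to 1088, 754, 694 and 39.3 CPM. Padi6 measured 267, 227, 200.1 and 6.83 CPM, and Nlrp5 measured 112, 80.6, 81.0 and 2.61 CPM. Ooep (chromosome 9 from 78376109 to 78378725, minus strand) measured 108, 78.4, 40.3 and 2.57 CPM. For Ooep the INK128 libraries were 2.68-fold and 1.94-fold above control replicate 1, against 1.38-fold and 0.994-fold for Nlrp5. Tle6 measured 181, 125, 97.4 and 15.8 CPM and differed least between the controls among the growing genes. Khdc3 measured 61.7, 43.7, 30.5 and 1.22 CPM, and it shares 790 exonic bases on its own strand with Gm20509, which had 1346, 1244, 1021 and 409 counts, so reads there may have been assigned to neither or either. In 4 of the 8 (Ooep, Padi6, Tle6 and Khdc3) both INK128 libraries exceeded both controls, against 34.5% of all tested genes, and for the 4 Nlrp genes the groups overlapped. Nlrp14 measured 300.4, 158, 196 and 7.38 CPM, Nlrp4f 45.7, 34.9, 38.1 and 2.28 CPM and Nlrp2 11.9, 7.36, 10.4 and 0.633 CPM. Members of the Nlrp, Tcl1, Oosp and Zar1 families have close relatives in the genome, and how reads with several matches were counted is not given, so their values are uncertain to that extent.

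The maternal effect and chromatin genes were lower in both controls than in either INK128 library. Npm2, the oocyte nucleoplasmin that remodels sperm chromatin, measured 64.7, 62.7, 26.2 and 2.11 CPM (chromosome 14 from 70647302 to 70659244, minus strand). Dppa3, which protects methylation of the maternal genome, measured 67.9, 63.6, 32.9 and 0.843 CPM. Zar1, which binds stored messenger RNA, measured 129.8, 115, 63.0 and 1.86 CPM. For Npm2 the INK128 libraries were 2.47-fold and 2.40-fold above control replicate 1, and for Dppa3 2.06-fold and 1.93-fold, with the groups apart for all 5 genes and in this direction for 34.5% of all tested genes. Zar1l measured 22.7, 19.8, 8.63 and 0.590 CPM, and H1foo, the oocyte linker histone, measured 121, 71.5, 60.0 and 3.16 CPM. Mos, a kinase that holds the egg in meiotic arrest, measured 31.4, 23, 13.7 and 0.801 CPM and Btg4, which starts maternal messenger RNA decay, measured 28.6, 19.9, 13.7 and 1.52 CPM, with the same order of libraries. The remaining members had overlapping groups. Bcl2l10, a BCL2 family protein, measured 82.8, 42.2, 42.3 and 2.11 CPM, Tcl1, a co-activator of AKT, 56.8, 29.8, 37.9 and 1.01 CPM and Rfpl4 13.9, 16.3, 16.7 and 1.64 CPM.

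Control replicate 1 exceeded control replicate 3 by a median of 19.5-fold over the 32 members with more than 3 counts in both controls. The growing genes had a median of 21.4-fold, from 6.18-fold for Tle6 to 39.0-fold for Dppa3 and Zp3. The early genes had a median of 7.33-fold over 6 genes, from 0.910-fold for Kit (95% counting interval 0.824 to 1.01) to 51.9-fold for Lhx8 (21.9 to 161). The 2 classes therefore overlapped, and within the early class the transcription factors Nobox (28.6-fold) and Lhx8 stood apart from Ddx4 (7.28-fold, 4.22 to 13.5), Dazl (7.37-fold, 5.44 to 10.2), Uchl1 (6.75-fold) and Kit. Of the members with a mean CPM above 10, 23 of 28 (82.1%) were over 10-fold higher in control replicate 1 than in control replicate 3. This held for 1.45% of all 11758 genes (170 genes). The median ratio of control replicate 1 to control replicate 3 was 0.991-fold over the 11749 tested genes with more than 3 counts in control replicate 3.

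**Figure D2:**
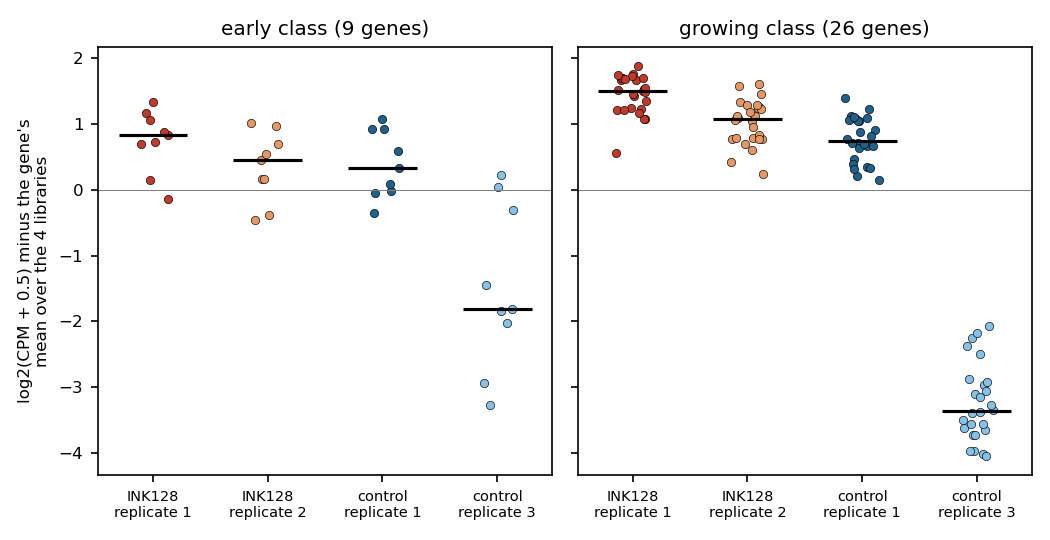
Deviation of each member from its own mean over the 4 libraries, on the log2(CPM + 0.5) scale, for the early class (left) and the growing class (right), with 1 point per gene and the median as a line. In control replicate 3 the medians were −1.82 for the early and −3.37 for the growing genes. There 3 early genes lay near 0, Kit and the near-floor Sohlh1 and Sohlh2. In INK128 replicate 1 the medians were 0.84 and 1.5.

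On the log2(CPM + 0.5) scale, early genes had median deviations of 0.84, 0.45, 0.33 and −1.82 in the 4 libraries, and growing genes of 1.5, 1.08, 0.74 and −3.37. Without Kit and Uchl1 the early medians were 0.87, 0.55, 0.33 and −1.84. The 2 INK128 libraries also differed, since INK128 replicate 1 was above INK128 replicate 2 for 31 of 35 members (88.6%), against 50% of all tested genes. Members are not replicates of a library, and no test was made of these counts.

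The comparison of INK128 with control asked whether INK128 changed the level of these genes, and it called none of them with both controls in the fit. Calls were made in edgeR (quasi-likelihood test, Benjamini-Hochberg adjusted across 11758 genes) at an adjusted p under 0.05 with more than 1.5-fold difference. By this rule 0 of the 28 members with a mean CPM above 10 were called, against 6.37% of all tested genes (374 higher and 375 lower with INK128). Adjusted p-values of the members ranged from 0.225 to 0.84, and 0 of 28 had an unadjusted p below 0.05. DESeq2 also called 0 of 28, against 28.6% of all genes, with a lowest adjusted p of 0.0714 for Npm2 and 2 members, Npm2 and Zar1l, at an unadjusted p below 0.05. Limma voom called 0 of 28 and 0 of all 11758 genes, with 6 members at an unadjusted p below 0.05. In the wider set of 17631 genes of mean CPM above 1, which brought in Figla, Lhx8, Ddx4, Gpr3 and Nlrp2, edgeR called 0 of 33 members and 0 genes in all, with 0 members at an unadjusted p below 0.05.

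The fold changes were large and imprecise. Their median over the 28 members was 1.31 on the log2 scale, against −0.03 over all tested genes, with 27 of 28 above 0. Limma voom gave 2.76 for the same members. The values ran from −0.28 for Kit (standard error 0.28, adjusted p = 0.489, edgeR; 0.17 with offsets for exon length) to 2.20 for Zar1l (standard error 1.17, adjusted p = 0.238, edgeR). The 4 early members tested had a median of 0.65 and the 24 growing members of 1.44, and 1.25 and 2.79 in limma voom. Without Kit and Uchl1 the early median was 1.09 over 2 genes, and 1.28 over 5 genes in the wider set. With mean CPM above 1 the medians were 1.0 over 7 early and 1.44 over 26 growing genes. Both INK128 libraries exceeded both controls for 20 of the 35 members and for 18 of the 28 tested, against 34.5% of all tested genes, and both lay below for 0 members, against 34% of all tested genes.

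**Figure D3:**
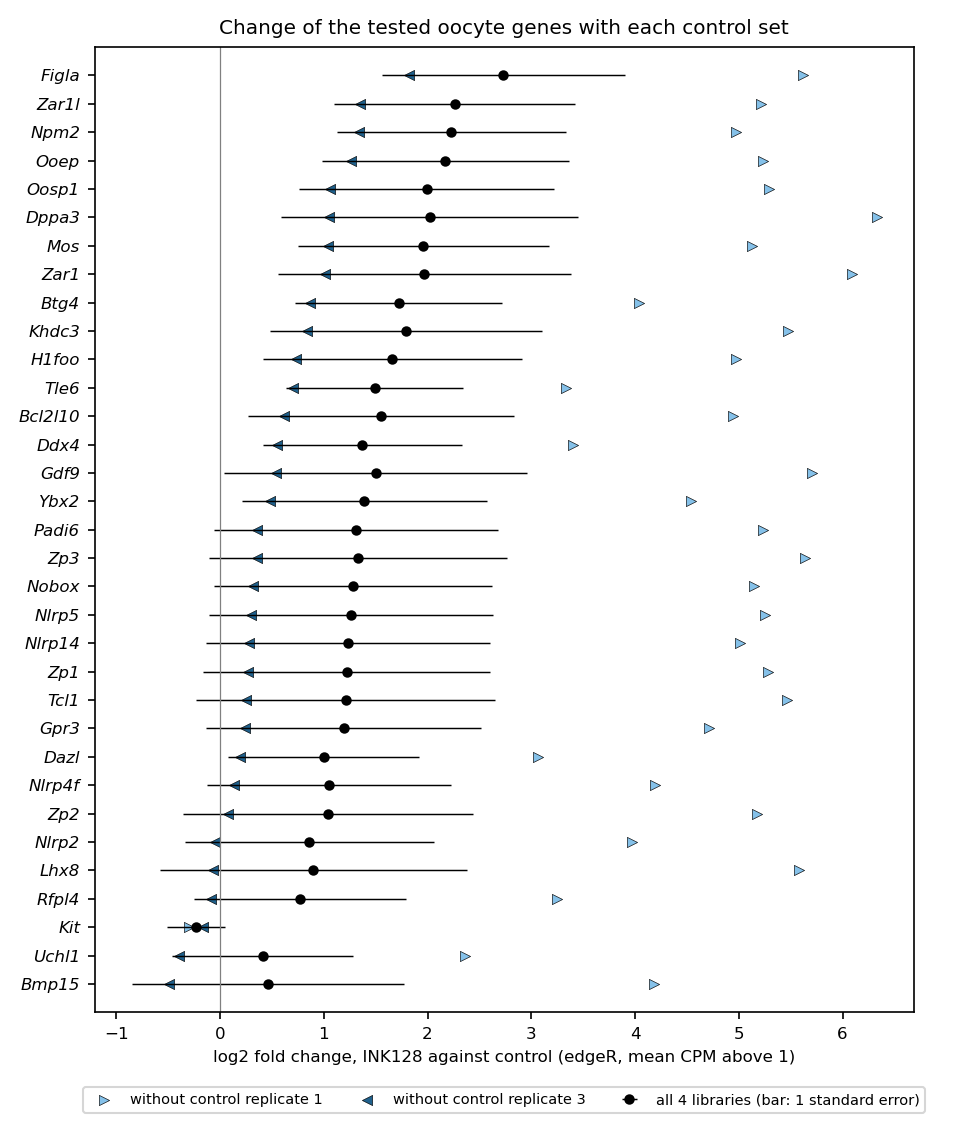
Log2 fold change of INK128 against control for the 33 members with a mean CPM above 1, with both controls (circles, bars of 1 standard error) and with either control left out (triangles), on a linear axis. Values without control replicate 1 lie near 5 for most genes and values without control replicate 3 near 0 to 1, while those of Kit lie together just below 0.

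How much the members differed between the groups depended on which control was compared. In edgeR without control replicate 3, where the lone control is assumed to vary like the INK128 libraries, 10 of the 28 members were called higher and 0 lower, against 21.2% of all tested genes called higher, and the median log2 fold change was 0.37. Without control replicate 1, 27 of 28 were called higher, all but Kit, against 22.7% of all tested genes, and the median was 5.09. In the wider set, 12 of 33 were called without control replicate 3 (19.4% of all genes called higher), and 32 of 33 without control replicate 1 (21.6%). Over all tested genes, 42.6% were called in either direction without control replicate 3 and 45.8% without control replicate 1, with 21.4% and 23.2% called lower. The early members had a median of −0.04 and the growing members of 0.53 without control replicate 3, and of 2.66 and 5.14 without control replicate 1. Without Kit and Uchl1 the early medians were 0.20 and 4.05 over 2 genes, and in the wider set 0.32 and 5.15 over 5 genes, beside 0.51 and 5.15 for the growing genes.

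Without control replicate 3, Oosp1, Ooep, Tle6, Khdc3, Dppa3, Npm2, Zar1, Zar1l, Mos and Btg4 were called higher both among the 11758 genes (the narrower set) and in the wider set, and Figla and H1foo only in the wider set. Figla was not in the narrower set, where H1foo reached 0.68 on the log2 scale (adjusted p = 0.0599, edgeR). The calls included 4 of 5 maternal effect and chromatin genes in the narrower set and 5 of 5 in the wider one, beside 21.2% and 19.4% of all genes called higher there. They also held 2 of 2 meiosis and decay genes, 3 of 8 subcortical complex and NLRP genes and 0 of 3 zona genes. In the narrower set the log2 fold change was 1.28 for Npm2 (adjusted p = 0.000398, edgeR), 1.21 for Ooep (adjusted p = 0.00137, edgeR) and 0.03 for Zp2 (adjusted p = 0.917, edgeR), and in the wider set it was 1.82 for Figla (adjusted p = 0.0322, edgeR). Bmp15 had a value of −0.54 (adjusted p = 0.0551, edgeR) and Uchl1 of −0.45 (adjusted p = 0.135, edgeR) in the narrower set, both lower with INK128 against this control without passing the test. Of the 7 early genes of the wider set, Figla had the highest value, and the others lay between −0.40 and 0.55 on the log2 scale. In the wider set the 9 members with under 1.5 kb of exon had a median log2 fold change of 1.05 (0.36 to 1.82) and the 24 longer ones of 0.27 (−0.49 to 1.26). With offsets for exon length in the wider set, 12 members were called (24.9% of all genes called higher) and the median of the 33 was 0.47 against 0.21 over all genes, compared with 0.36 and 0.01 without the offsets.

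The proportions among the oocyte genes were described by dividing each count by the summed Zp1, Zp2 and Zp3 counts of the same library, which were 7277, 7788, 7482 and 220. The zona genes differed by 32.5-fold to 39.0-fold between the controls and the members by a median of 19.5-fold, so this scale by its construction raises most other members in control replicate 3, and a high value there says only that a gene differed less between the libraries than the zona genes did. On this scale Nobox stood at 8.31%, 7.18%, 7.28% and 9.09%, Padi6 at 68.4%, 63.3%, 60.4% and 73.6% and Nlrp5 at 28.7%, 22.5%, 24.5% and 28.2%. These 3 genes kept their proportion to the zona genes within the counting interval of control replicate 3 (5.45% to 14.4% for Nobox). Gdf9 stood at 116%, 73.8%, 77.2% and 76.8%, with only INK128 replicate 1 outside.

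**Figure D4:**
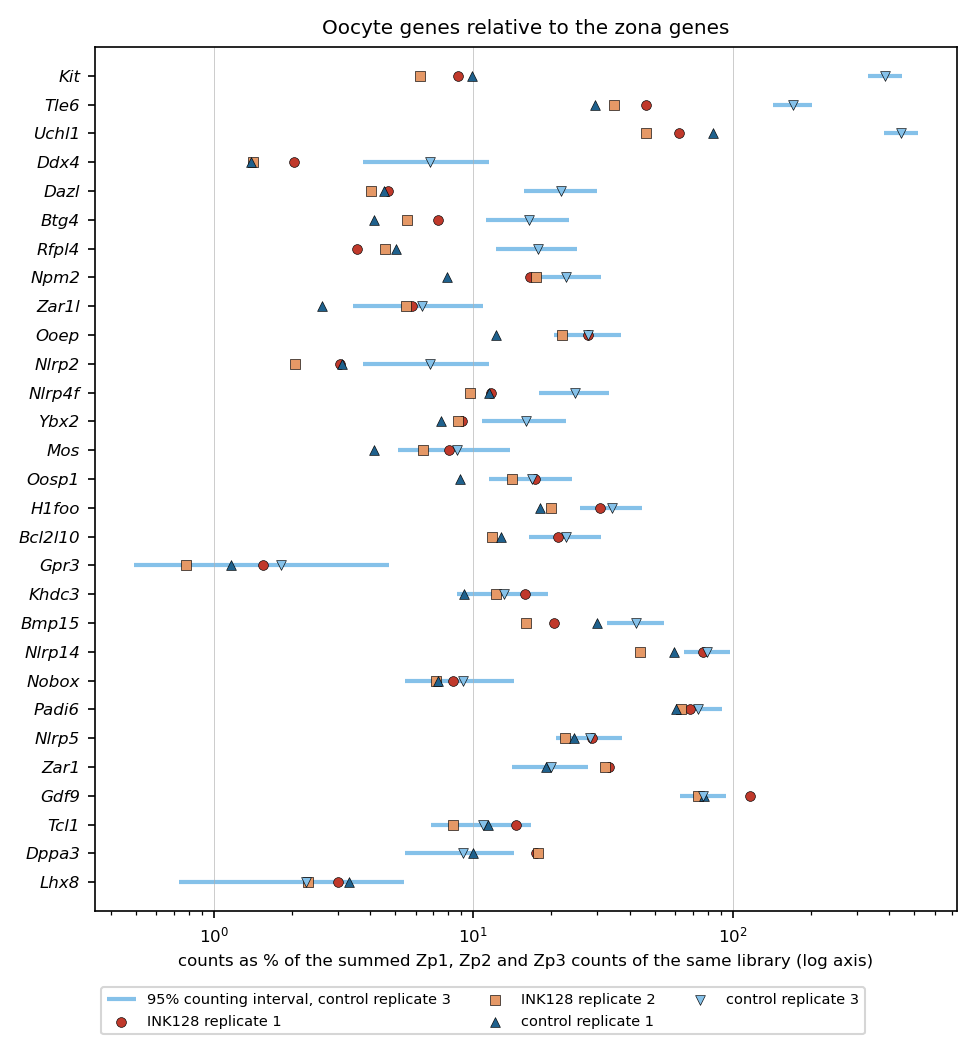
Counts of each member as a percentage of the summed Zp1, Zp2 and Zp3 counts of the same library (log axis), with the 95% counting interval of control replicate 3 as a bar; the zona genes, Figla, Sohlh1 and Sohlh2 are left out. Kit, Tle6, Uchl1, Ddx4, Dazl, Btg4, Rfpl4, Nlrp2, Nlrp4f, Ybx2 and Bmp15 have the whole bar to the right of the other libraries, while Nobox, Padi6, Nlrp5, Tcl1 and Lhx8 lie together.

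Another set of genes was high in control replicate 3 on the zona scale. Dazl stood at 4.67%, 4.05%, 4.50% and 21.8% (15.6% to 29.9%), Ddx4 at 2.03%, 1.41%, 1.39% and 6.82% (3.75% to 11.5%) and Tle6 at 46.3%, 34.9%, 29.4% and 170% (143% to 202%). Btg4 and Rfpl4 did the same, with 16.4% and 17.7% in control replicate 3 against at most 7.32% and 5.04% in the other libraries. Kit stood at 8.73%, 6.20%, 9.85% and 386%. Uchl1, Ybx2, Nlrp2, Nlrp4f and Bmp15 also had their interval in control replicate 3 above the other libraries, as did Sohlh1 and Sohlh2 with 3 counts each. In all, the interval lay above the other libraries for 6 of 9 early genes and 7 of 23 growing genes other than the zona genes.

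Genes called higher with INK128 against control replicate 1 differed among themselves in their proportion to the zona genes in control replicate 3, although all were lowest there in CPM. Npm2 stood at 16.6%, 17.5%, 7.90% and 22.7% (16.4% to 31.0%), Ooep at 27.7%, 21.9%, 12.2% and 27.7% (20.5% to 37.0%) and Mos at 8.03%, 6.42%, 4.13% and 8.64% (5.10% to 13.8%). Dppa3 at 17.4%, 17.8%, 9.93% and 9.09% (5.45% to 14.4%) and Zar1 at 33.2%, 32.1%, 19% and 20.0% (14.1% to 27.8%) were lower in both controls.

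A second list of 40 oocyte genes, chosen after the first with results of these data known, was used as a further description. It summed to 1130, 868, 1050 and 210 CPM, and control replicate 3 was the lowest library for 35 of the 38 genes with a count, while Obox3 and Obox6 had 0 counts in all libraries. Of the 21 with a mean CPM above 10, 0 were called by edgeR with both controls, against 6.37% of all tested genes, 19 had a positive log2 fold change and the median was 0.76. Without control replicate 3 the median was 0.01, with 11 of 21 positive, 3 called higher and 2 lower, against 21.2% and 21.4% of all tested genes, and without control replicate 1 it was 4.34, with 18 called higher and 0 lower, against 22.7% and 23.2%. Control replicate 1 was over 10-fold above control replicate 3 for 13 of the 21 (61.9%). The most abundant were Zbed3 with 229, 216, 312 and 50.4 CPM, Bpgm with 136, 99.6, 91.8 and 27.2 CPM and Astl, the ovastacin protease of the egg, with 65.6, 57.2, 33.1 and 0.590 CPM. Of the 170 genes that differed by over 10-fold in this direction, 13.5% were members of the first list and 7.65% of the second.

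Most follicle somatic genes did not share the low level in control replicate 3, which was the lowest library for 3 of the 20, Amh, Amhr2 and Fshr, and the highest for 10. The list mixes granulosa cell genes with receptor and signalling genes of wider expression, so it is not a measure of follicle cells. Inha was its most abundant gene, with 4067, 5893, 1680 and 2858 CPM. The 20 follicle somatic genes summed to 9564, 11800, 5878 and 11270 CPM, lowest in control replicate 1, and edgeR called 0 of them with both controls, with a median log2 fold change of −0.29. Without control replicate 3, 8 were called higher and 2 lower (median 0.16), against 21.2% and 21.4% of all tested genes. Without control replicate 1, 3 were called higher and 7 lower (median −0.26), against 22.7% and 23.2%. Foxl2, a granulosa cell transcription factor, measured 371, 368, 146 and 276 CPM. Inhba, an activin subunit of granulosa cells, measured 577, 711, 176 and 2088 CPM. Amh, which granulosa cells of growing follicles and also Sertoli cells make, measured 131, 80.1, 435 and 5.10 CPM and was 85.2-fold higher in control replicate 1 than in control replicate 3. The male germ cell markers (6 genes) summed to 7.03, 5.89, 29.5 and 2.32 CPM. Gfra1 alone gave 26.5 of the 29.5 CPM in control replicate 1 and was the 1 marker of the list that was highest there, while Tex101 had 0 counts in all libraries. All 5 Sertoli cell and all 4 Y-linked genes were highest in control replicate 1, the library against which the maternal effect genes were called, and their part in that result was not tested. The methods name female donor gonads and ovariectomized recipients, and the source of the Y-linked reads was not tested.

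**Figure D5:**
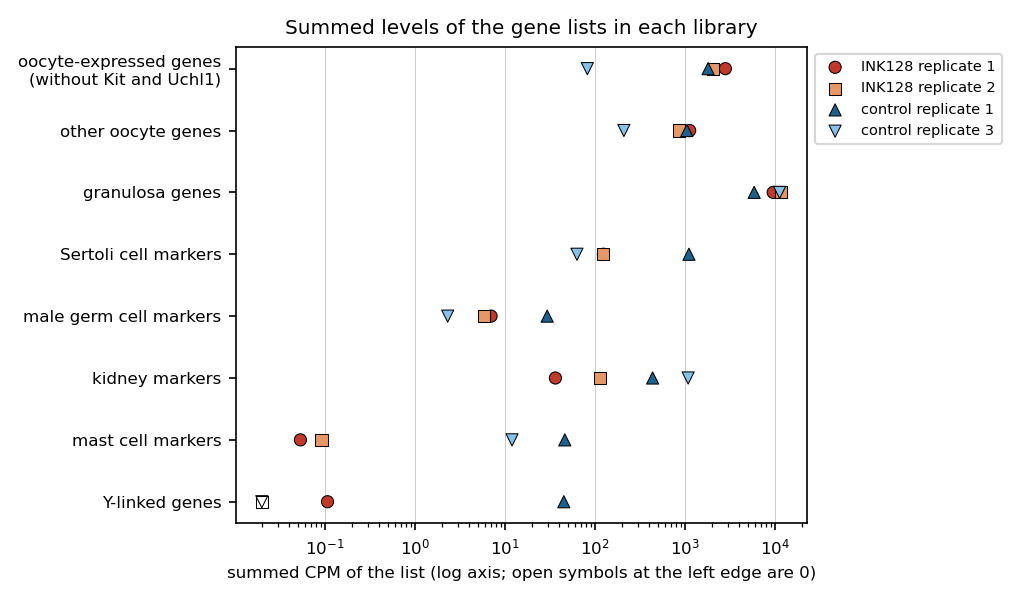
Summed CPM of the oocyte-expressed genes without Kit and Uchl1 and of 7 other gene lists in the 4 libraries (log axis, open symbols at the left edge stand for 0). Control replicate 3 is the lowest library for both oocyte lists and the highest for kidney markers, and control replicate 1 is the highest for Sertoli cell, mast cell and Y-linked genes and, through Gfra1, for male germ cell markers.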

How the data were processed

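RNA of rOvaries was extracted with an RNeasy kit and polyA libraries were made with a NEBNext Ultra kit. Per the submitters' processing notes and the methods, the authors used Trimmomatic for trimming, HISAT2 for alignment to mm10 and featureCounts for counting; versions and the handling of strand and of reads with several matches are not given in the sources used here. The deposited table holds raw counts for each gene symbol, neither normalized nor pooled, and columns were assigned to libraries by their names. Of 54021 symbols, 53447 matched GENCODE on mm10, which gave positions and exon lengths.

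Levels are CPM with TMM factors, from edgeR 4.0.16 in R 4.3.3. Counts were fitted with group as the only term and tested with glmQLFTest over 11758 genes (mean CPM above 10), and, as a wider set, over 17631 genes (mean CPM above 1), which holds members below the first limit; the text names the wider set where its values are used. Calls needed more than 1.5-fold difference and a Benjamini-Hochberg adjusted p under 0.05. Median deviations used log2(CPM + 0.5). DESeq2 1.42.0, limma 3.58.1 (voom), other scalings, filters, offsets for exon length and GC content, and leaving out each library were alternatives. The scripts were tested on simulated data.

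The members, the classes and the other lists were chosen with earlier results of these data known. All 35 members are accounted for, with their values or in a group, and of other lists at most the 3 most abundant genes were to be named; Amh, Amhr2, Fshr, Obox3, Obox6, Kitl, Foxl2, Gfra1, Tex101, Astl, Sox9 and Dmrt1 were named for their roles after their values were seen. The division by zona counts and the leave-out and exon length fits of genes with a mean CPM above 1 were chosen after seeing the data. Intervals of ratios between controls and of zona percentages are exact (Clopper-Pearson) 95% intervals of counting error.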

Additional observations from a re-analysis of the deposited data

How the results depend on the processing

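No member was called in the fits with all 4 libraries, whatever the test, scaling, filter or offset. Fits of the narrower set with either INK128 library left out called no member but also no gene at all, so they say nothing about the members. Leaving out 1 library at a time gave 0 to 27 members called higher of 28 and 0 to 32 of 33 with a mean CPM above 1, and 0 called lower. It moved the median log2 fold change between 0.37 and 5.09, that of early members between −0.04 and 2.66 and that of growing members between 0.53 and 5.14. Control replicate 3 decided the upper end of these ranges, since the highest values are those without control replicate 1. In the fit with offsets for exon length and without control replicate 3, chosen after seeing the data, 12 members were called. Scaling by library totals moved the median of all genes to −0.15 and that of the members to 1.18. Signs turned for Kit (0.17) and Uchl1 (−0.02) with offsets for exon length, for Lhx8 (−0.02), Kit (0.24), Uchl1 (−0.42), Bmp15 (−0.40) and Rfpl4 (−0.12) with these offsets and control replicate 3 left out among genes with a mean CPM above 1, for Kit there without INK128 replicate 2 (0.03) and with the offsets alone (0.20), and for 5 members without control replicate 3, where over the libraries left out Uchl1 ranged from −0.45 to 2.30, Bmp15 from −0.54 to 4.13, Rfpl4 from −0.14 to 3.19, Lhx8 from −0.07 to 5.58 and Nlrp2 from −0.05 to 3.97 (lowest without control replicate 3); none passed the test with the turned sign, and the cause was not tested. Over all genes, calls with higher and lower levels were 1595 and 1772 with DESeq2, 0 and 0 with limma voom, with a mean CPM above 1 and with offsets for exon length or GC content, 1152 and 1953 with at least 1 count, and 1540 and 1591 at an adjusted p below 0.1. Upper quartile factors gave 567 higher and library totals 580 lower, and leaving out 1 library gave 0 to 2664 higher and 0 to 2723 lower. No paired analysis was possible because the groups share only replicate number 1. Control replicate 3 had 220 zona counts, which limits its percentages on the zona scale.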
